A study of Gossypium barbadense and Gossypium hirsutum with 4 samples.

Results

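The later steps of the flavonoid pathway, from flavanone 3-hydroxylase to the enzymes that form the building units of proanthocyanidins, were followed by 7 probe sets among 24029 compared on the Affymetrix cotton array. Of these, 6 were listed by enzyme name, for flavanone 3-hydroxylase (F3H), dihydroflavonol 4-reductase (DFR, 2 probe sets), leucoanthocyanidin reductase (LAR), anthocyanidin synthase (ANS) and anthocyanidin reductase (ANR). The remaining probe set was added because it carries the same cluster number as the F3H probe set. The listed probe sets were chosen by their difference between the species on these same arrays. They came from rows, all higher in *Gh*, of the study's list of differential probe sets. Their differences are therefore given as a description, and no test is read as support for them. Where members passing a threshold are counted, nothing is read from the count.

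Fibers of *G. barbadense* VH8-4602 (*Gb*) were compared with fibers of *G. hirsutum* Guazuncho 2 (*Gh*), on 2 arrays per species (*Gb* 1 and 2, *Gh* 29 and 30). Both are tetraploid cotton species with an A and a D sub-genome, each was represented by a single variety, and plants of both were grown in soil in a glasshouse without any treatment. Fibers were 11 days post anthesis (dpa) by the labels, which name 1 harvest date for all 4 arrays, and RNA was pooled from 4 plants per array. Values are gcrma signals on the log2 scale, differences are *Gb* minus *Gh*, and a species whose arrays both read under 4 is called below the floor.

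Flavonoids are made from phenylalanine, through cinnamate and chalcone, and F3H opens the later part of the pathway by turning flavanones into dihydroflavonols. DFR reduces these to leucoanthocyanidins, where the route divides. LAR converts leucoanthocyanidins directly to catechin, whereas ANS oxidizes them to anthocyanidins, which ANR reduces to epicatechin. Catechin and epicatechin are the units of proanthocyanidins, the condensed tannins of seed coats and of brown cotton fibers. In Arabidopsis, loss of several of these enzymes leaves the seed coat without its brown pigment. A cotton fiber is a single elongated cell of the seed coat epidermis.

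Signal of the 5 members above the floor in at least one species was lower in *Gb* at every step, and the size of the difference varied along the pathway. It was greatest for DFR, whose signal was below the floor in *Gb* and high in *Gh*. LAR, ANS and F3H lay between 3.85-fold and 5.45-fold higher in *Gh*, and ANR was 2.32-fold higher in *Gh*. The other 2 members, the second probe sets of F3H and DFR, were below the floor in both species.

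**Figure D1:**
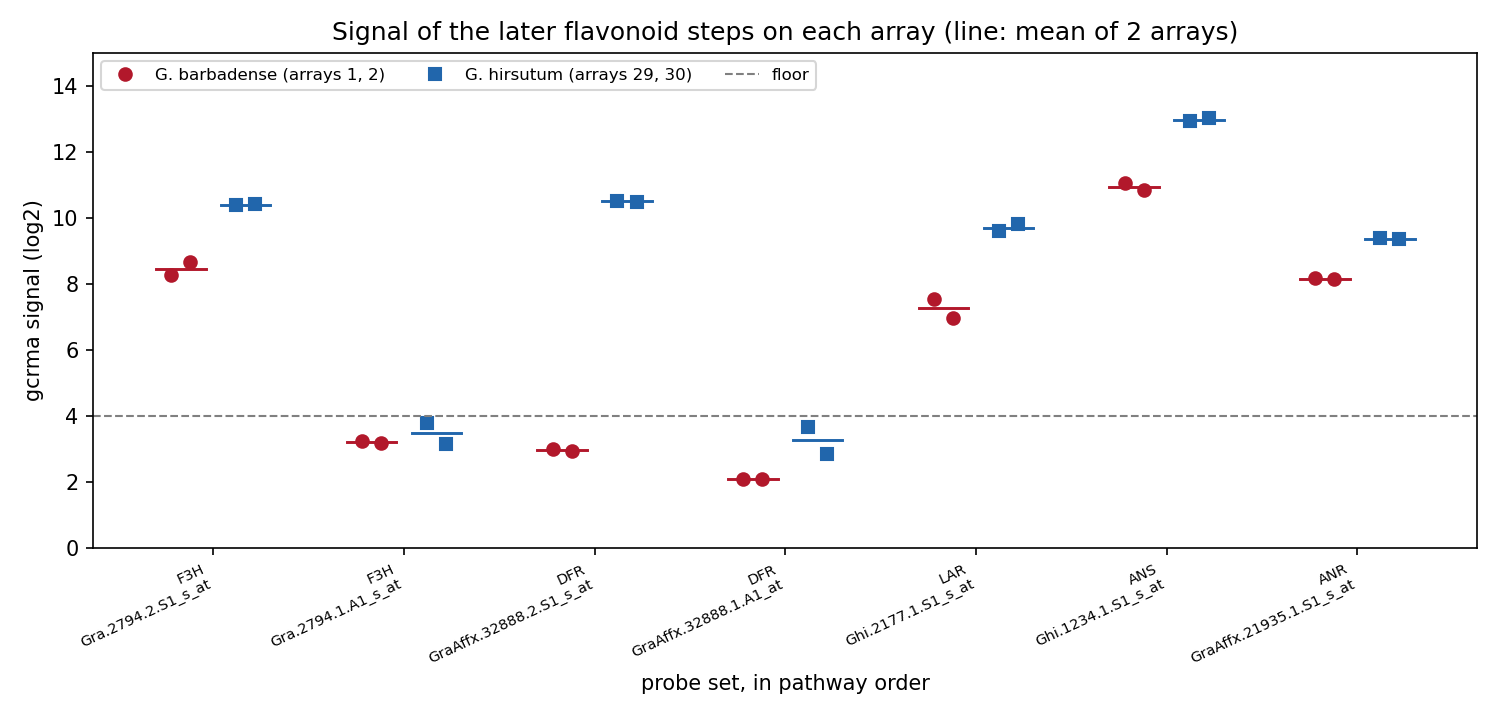
Gcrma signal (log2) of the 7 members on each array, in pathway order, with circles for the *Gb* arrays, squares for the *Gh* arrays, short lines for the means of 2 arrays and a dashed line for the floor at 4. The circles lie below the squares for F3H (Gra.2794.2.S1_s_at), DFR (GraAffx.32888.2.S1_s_at), LAR, ANS and ANR, and Gra.2794.1.A1_s_at and GraAffx.32888.1.A1_at lie under the dashed line in both species.

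The F3H probe set Gra.2794.2.S1_s_at had log2 signals of 8.27 and 8.65 in *Gb*, against 10.40 and 10.41 in *Gh*. Both *Gb* arrays lay under both *Gh* arrays, and the *Gb* arrays were further apart than the *Gh* arrays. The difference was -1.94 (standard error 0.16 from limma, n = 2 arrays per species). Its cluster neighbour Gra.2794.1.A1_s_at was not among the rows of the study's list used here. Its log2 signals were 3.23 and 3.16 in *Gb* and 3.79 and 3.15 in *Gh*. These values were below the floor in both species and overlapped between them, with a difference of -0.27 (standard error 0.26) that did not pass (adjusted p = 0.464 from limma over all probe sets).

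DFR, which uses NADPH to reduce dihydroflavonols, is the last step before the route divides. GraAffx.32888.2.S1_s_at had log2 signals of 2.99 and 2.93 in *Gb*, against 10.51 and 10.49 in *Gh*. Signal in *Gb* was thus below the floor on both arrays, and the arrays of each species lay within 0.06 of each other. Set against the floor, the signal was at least 90.5-fold higher in *Gh*, while the difference of the gcrma values themselves was -7.54 (standard error 0.04). The second DFR probe set, GraAffx.32888.1.A1_at, belongs to the same cluster and had log2 signals of 2.09 and 2.07 in *Gb* and of 3.66 and 2.84 in *Gh*. Both species were below the floor here, so no fold is given, and the *Gh* arrays were apart by 0.82. The probe set with the high signal in *Gh* therefore stood alone for this enzyme among the members, and how well its probes match the *Gb* transcript was not tested.

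LAR forms catechin from leucoanthocyanidin. The LAR probe set Ghi.2177.1.S1_s_at had log2 signals of 7.54 and 6.98 in *Gb*, against 9.59 and 9.82 in *Gh*, a difference of -2.45 (standard error 0.24). Both *Gb* arrays lay under both *Gh* arrays, and the *Gb* arrays lay 0.56 apart.

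ANS is a dioxygenase that takes leucoanthocyanidin along the other branch, to the coloured anthocyanidins. Its probe set Ghi.1234.1.S1_s_at is named anthocyanidin synthase by Blast2GO, but the array description names it gibberellin 3-hydroxylase 1, an enzyme of hormone synthesis that belongs to the same class of dioxygenases. The log2 signals were 11.05 and 10.84 in *Gb*, against 12.94 and 13.02 in *Gh*. The difference was -2.03 (standard error 0.10), which is 4.09-fold higher in *Gh*, and the gap between the species was far wider than the gap between the arrays of either. Which name applies to the transcript cannot be told from these values.

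ANR completes the branch that passes through anthocyanidin by forming epicatechin. GraAffx.21935.1.S1_s_at had log2 signals of 8.16 and 8.15 in *Gb*, against 9.38 and 9.36 in *Gh*. The arrays of each species were nearly equal, and the difference, -1.22 (standard error 0.03), was the smallest among the members above the floor in a species.

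Among the 4 members above the floor in both species, ANR had a smaller difference than the other three, and LAR, ANS and F3H could not be fully ordered. The members were chosen on this same contrast, so the order and its spread are a description and not a test. The gap between the differences of ANR and of its nearest neighbour, F3H, was -0.73 (F3H minus ANR, standard error 0.20 from the 4 arrays), and the F3H minus ANR values did not overlap between the species. Leaving out 1 array moved this gap between -0.93 (without *Gb* 2) and -0.53 (without *Gb* 1). LAR and F3H were apart by -0.50 (standard error 0.49) with overlap, and without *Gb* 2 by only -0.03. ANS and F3H were apart by -0.09 (standard error 0.30), and without *Gb* 2 the sign of this gap turned (0.21). For LAR and ANS the gap was -0.41 (standard error 0.19) without overlap, and it ran from -0.59 without *Gb* 1 to -0.24 without *Gb* 2.

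Of the 7 members, 5 passed the limma threshold (adjusted p below 0.05 over all probe sets), and all 5 were lower in *Gb*. On the whole array, 20.3% of probe sets passed in either direction and 8.87% passed as lower in *Gb*. Both *Gb* arrays lay under both *Gh* arrays for 6 of the 7 members and for 19.7% of all probe sets. Since the members were chosen on this contrast, nothing is read from these counts, or from which members passed in the other settings. Which members passed also changed when a *Gh* array was left out, and such fits leave 1 array in a species. Without *Gh* 30 the difference of LAR was -2.33, and without *Gh* 29 that of GraAffx.32888.1.A1_at was -0.76. Of all calls, 43.7% were lower in *Gb*, and 73.6% were when arrays were scaled to the hybridization controls, which moved the median difference of all probe sets to -0.25 and each member by -0.28. With that scaling all 7 members passed, including both below the floor, and with an intensity trend in limma GraAffx.32888.1.A1_at passed as well. The median difference was -1.94 over the 7 members and 0.04 over all probe sets. In the order of all differences from the most negative upwards, LAR stood at place 334, ANS at 449, F3H at 486 and ANR at 960, while DFR has no exact place because its *Gb* signal was below the floor.

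**Figure D2:**
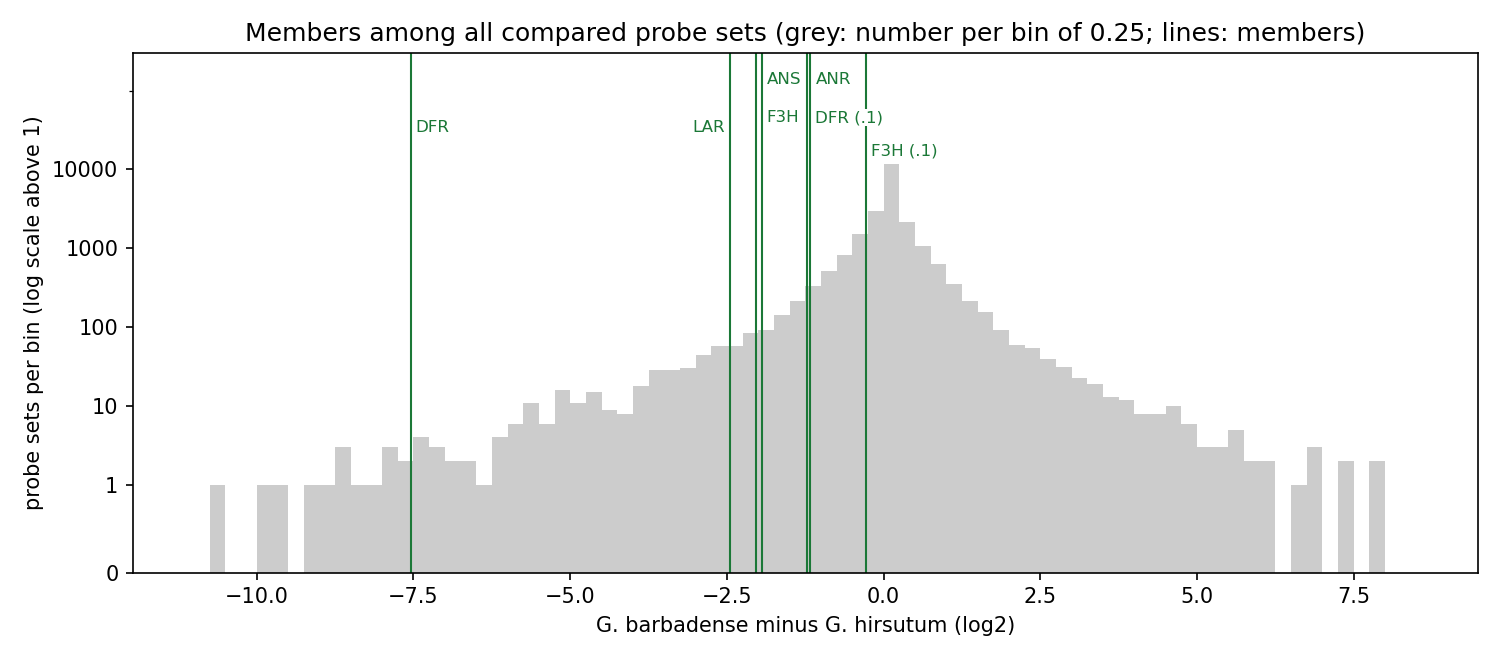
Number of probe sets per bin of 0.25 against the difference *Gb* minus *Gh* (log2), on an axis that is logarithmic above 1, with vertical lines at the differences of the 7 members and Gra.2794.1.A1_s_at and GraAffx.32888.1.A1_at marked apart from the other F3H and DFR probe sets. DFR lies far to the left at -7.54, a value that rests on *Gb* signals below the floor, ANS and F3H share nearly the same place at -2.03 and -1.94, and Gra.2794.1.A1_s_at lies within the bulk at -0.27.

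Further probe sets of the later and side steps were taken by name from the same list, together with their cluster neighbours, which gave 8 probe sets. Of these, 6 passed the threshold, all lower in *Gb* (8.87% of all probe sets), and the other 2 were below the floor in both species. Without *Gh* 29, 2 of the 8 passed (CHI and ANR), and without *Gh* 30, 3 passed (CHI, LAR1 and ANR), while 5 passed without either *Gb* array, LAR1 being lost. The median difference of the 8 was -1.64. As with the members, the names came from a list ranked on these arrays, and the direction is therefore fixed by the choice.

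Chalcone isomerase (CHI), which closes the ring of chalcone to a flavanone, precedes F3H. Its probe set GhiAffx.26824.1.A1_s_at had log2 signals of 6.14 and 6.38 in *Gb*, against 7.85 and 7.75 in *Gh*, a difference of -1.54 (standard error 0.11). The other F3H probe set, Gra.2007.1.S1_x_at, had 9.66 and 9.00 in *Gb*, against 11.22 and 11.18 in *Gh*, and a difference of -1.87 (standard error 0.27). For F3H both probe sets thus gave similar mean differences, with a gap of -0.07 that was loosely fixed (standard error 0.52). This gap ran from -0.59 without *Gb* 2 to 0.45 without *Gb* 1.

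The hydroxylases of the B ring are cytochrome P450 enzymes that decide how many hydroxyl groups the later products carry. Flavonoid 3'-hydroxylase (F3'H, Gra.605.2.A1_x_at) had log2 signals of 11.25 and 10.82 in *Gb*, against 12.84 and 12.71 in *Gh*, a difference of -1.74 (standard error 0.18). Flavonoid 3',5'-hydroxylase (F3'5'H, Ghi.2175.1.S1_s_at) had 11.43 and 10.92 in *Gb*, against 13.09 and 13.10 in *Gh*, a difference of -1.92 (standard error 0.21). Both hydroxylases were bright in both species, without overlap of the arrays. The cluster neighbours of F3'H, Gra.605.1.A1_s_at and Gra.605.3.A1_x_at, were below the floor in both species, with differences of -0.10 and 0.02 (adjusted p = 0.481 and 0.621 from limma).

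Both LAR and ANR were also measured by a second cluster. LAR1 (GarAffx.38922.1.S1_s_at, designed from a *G. arboreum* sequence) had log2 signals of 9.86 and 9.34 in *Gb*, against 11.83 and 11.36 in *Gh*, a difference of -1.99 (standard error 0.28). The gap between the LAR member and LAR1 was -0.45 (standard error 0.35). The LAR minus LAR1 values of both *Gb* arrays lay under those of *Gh*, with *Gh* 29 close to them. The second ANR probe set, GhiAffx.4183.1.S1_s_at, had 13.53 and 13.39 in *Gb*, against 14.63 and 14.66 in *Gh*. Its difference of -1.18 (standard error 0.06) was close to the -1.22 of the ANR member, with a gap of -0.03 (standard error 0.07). The *Gh* signals of this second ANR probe set were among the highest of the pathway probe sets. Whether the array still measured differences in full at that level was not tested. For F3H and ANR, the values of one cluster minus the other overlapped between the species, which does not show that both clusters differ equally. Another cluster of DFR or ANS was not analysed here.

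The steps before CHI were covered by 17 probe sets named phenylalanine ammonia-lyase (PAL), cinnamate 4-hydroxylase (C4H) or chalcone synthase (CHS). Of these, 16 passed the threshold as lower in *Gb*, namely 3 of 4 for PAL, 6 of 6 for C4H and 7 of 7 for CHS, where 8.87% of all probe sets did. These names too came from the list of probe sets higher in *Gh*, so that their direction was fixed by the choice and nothing is read from the count. Where both species were above the floor, differences ran from -3.50 to -1.01 for these earlier steps and from -2.45 to -1.22 for the members. Among all 32 pathway probe sets, a high signal in *Gh* with both *Gb* arrays below the floor was found for the DFR probe set and for CHS probe sets Gra.207.1.A1_s_at and Ghi.6103.1.S1_at. The log2 signals were 2.17 and 2.34 in *Gb* and 12.78 and 12.75 in *Gh* for Gra.207.1.A1_s_at, and 2.32 and 2.74 in *Gb* and 12.24 and 12.20 in *Gh* for Ghi.6103.1.S1_at.

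**Figure D3:**
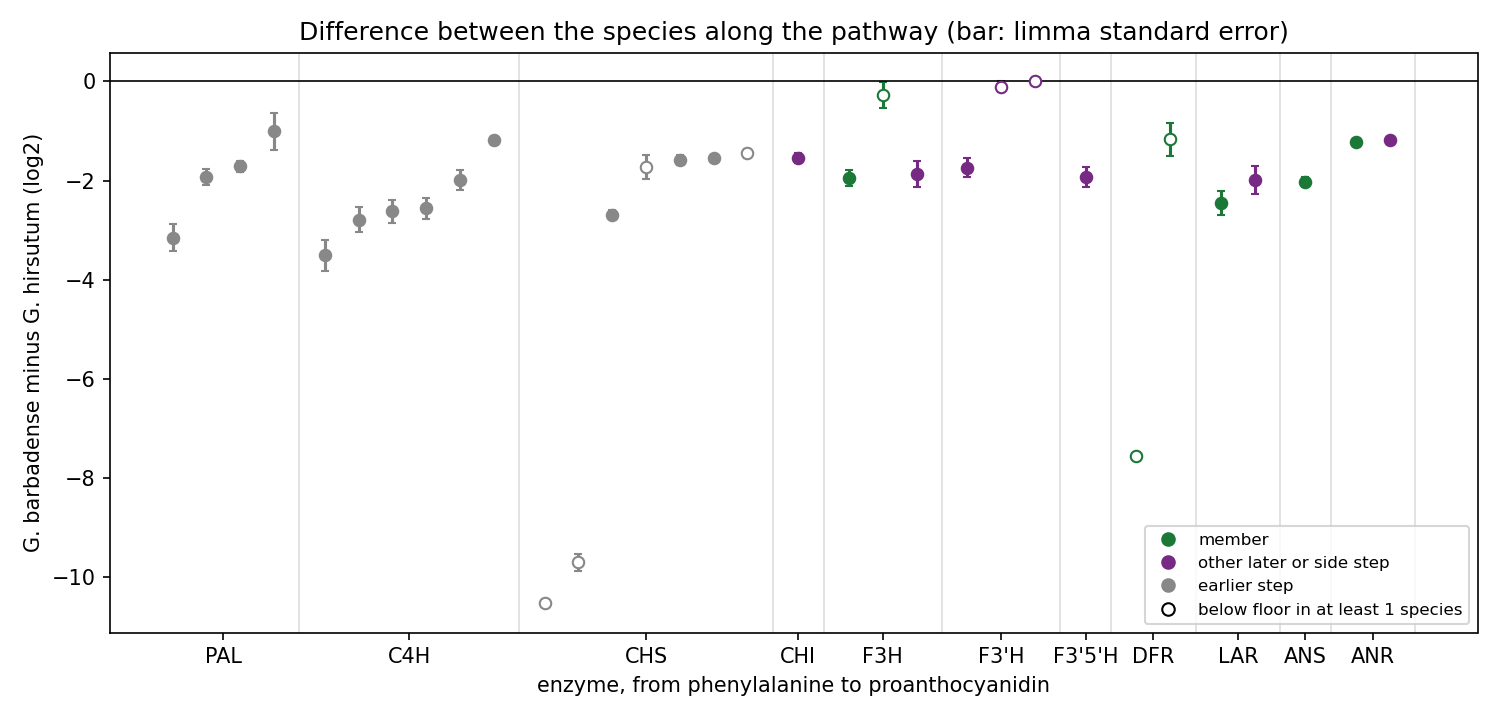
Difference *Gb* minus *Gh* (log2) of the members, of the other later and side steps and of the earlier steps, with enzymes in pathway order from PAL to ANR, bars for the limma standard error and open circles for probe sets below the floor in at least one species. All filled circles lie between -3.50 and -1.01, and the open circles at -7.54 (DFR), -9.69 and -10.51 (CHS) stand apart.

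Which of the 2 arrays of a species was higher was not used to choose the members. The size of that difference did enter the study's list, because its methods left out genes with extremes of variance. The probe sets of the whole array used for comparison here had no such filter. Among the 10 probe sets of the later and side steps with both *Gb* arrays at or above the floor, 8 were higher on *Gb* 1 than on *Gb* 2. Over all 12112 probe sets at or above the floor on both *Gb* arrays, 42.9% were higher on *Gb* 1. The median of *Gb* 1 minus *Gb* 2 was 0.32 for the 10 probe sets and -0.03 over all. A gap of at least 0.5 in this direction was reached by 4 of the 10, namely F3H (Gra.2007.1.S1_x_at, 0.66), LAR (Ghi.2177.1.S1_s_at, 0.56), LAR1 (0.52) and F3'5'H (0.51), and by 2.34% of all probe sets.

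The exceptions were the F3H member Gra.2794.2.S1_s_at, at -0.38, and CHI, at -0.24, both higher on *Gb* 2. Both F3H probe sets, with similar mean differences between the species, thus lay on opposite sides between the *Gb* arrays. ANS was at 0.22 and ANR (GraAffx.21935.1.S1_s_at) at 0.02. Of 13 earlier probe sets at or above the floor on both *Gb* arrays, 11 were also higher on *Gb* 1, with a median of 0.25. Between the *Gh* arrays no such lean was seen, since 6 of 11 probe sets were higher on *Gh* 29, with a median of 0.02, and 56.0% of all 12240 probe sets at or above the floor were. Probe sets of one pathway on one pair of arrays are not independent, and each array was a single pool, so the count stands without a test.

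**Figure D4:**
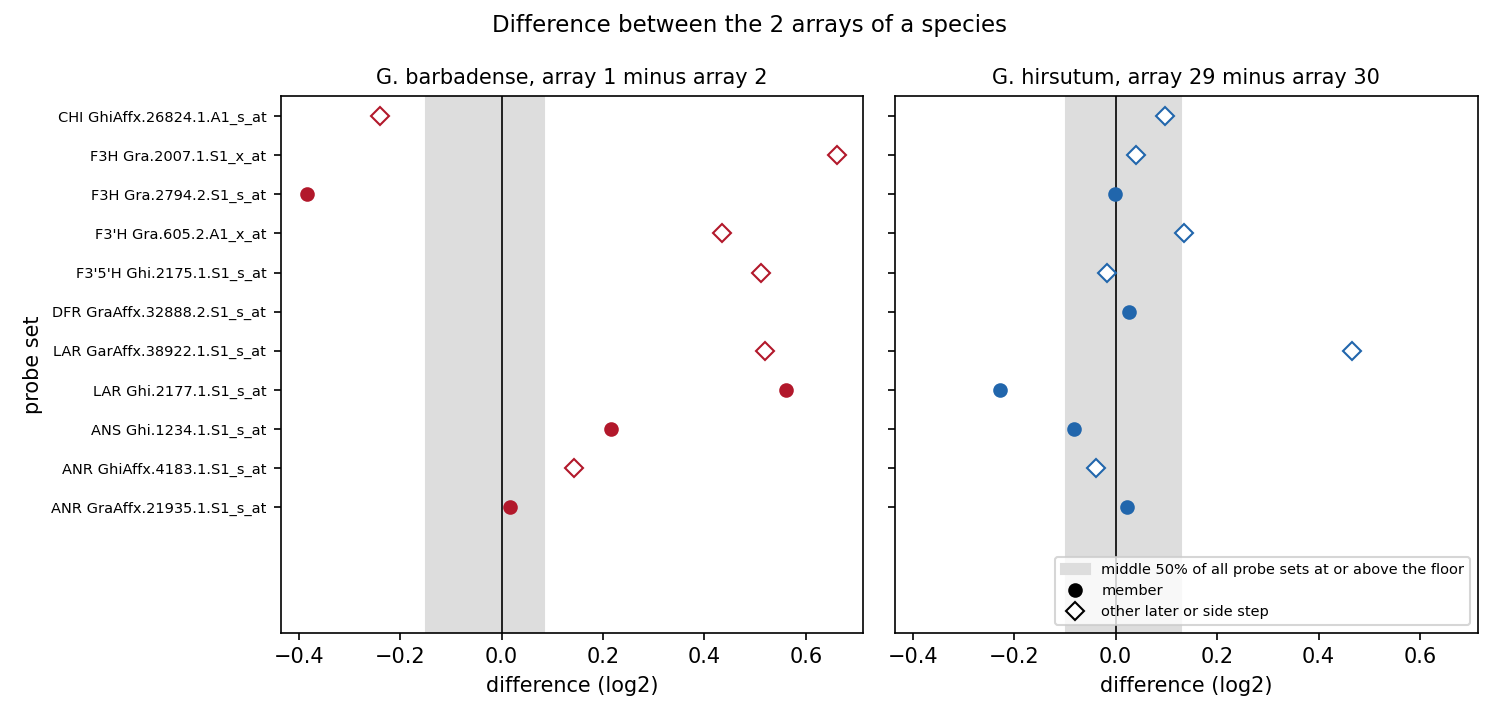
Difference between the 2 arrays of *Gb* (left, array 1 minus array 2) and of *Gh* (right, array 29 minus array 30), on the log2 scale, for the members (filled circles) and other later or side steps (open diamonds) at or above the floor on both arrays. Grey bands hold the middle 50% of all probe sets, and 8 of the 10 *Gb* points lie right of zero.

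As a further description, the named probe sets with the most similar profiles were sought by the root mean square difference of log2 signals, each centred on its mean over the 4 arrays. For DFR these were Ghi.2915.1.A1_at (similar to the ethylene response factor ERF3, distance 0.07), Ghi.520.1.S1_at (naphthoate synthase, 0.11) and GhiAffx.41878.1.S1_at (a TIR-NBS-LRR resistance protein, 0.12). All 3 were below the floor in *Gb*, with log2 signals of 9.22 or more in *Gh*, and 9 probe sets of the whole array lay within 0.25 of DFR. For LAR they were Ghi.1607.1.S1_s_at (cinnamyl alcohol dehydrogenase, an enzyme of lignin units, 0.08), GraAffx.29248.1.A1_s_at (NAD-dependent epimerase, 0.08) and Gra.489.2.A1_at (protein phosphatase 2C, 0.10), among 81 probe sets within 0.25. The median profile of LAR, ANS, F3H and ANR was shared more widely, with 271 probe sets within 0.25. The nearest named ones were GhiAffx.44664.1.S1_at (senescence-associated protein, 0.05), Ghi.2406.1.A1_s_at (ATPME2, a pectin methylesterase of Arabidopsis by name, 0.06) and Ghi.8718.1.S1_s_at (inter-alpha-trypsin inhibitor heavy chain, 0.06). Names were at hand only for probe sets higher in *Gh*, and over 4 arrays such a likeness mostly repeats the difference between the species.

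The identity of the probe sets limits what each value stands for. Array descriptions were given for the 6 listed members, 4 designed from *G. raimondii* (a diploid D-genome cotton) and 2 from *G. hirsutum*. Names of 6 of the 7 members end in _s_at, which marks probes shared by several transcripts, so that copies from both sub-genomes and related genes were not separated. Of the 8 other later and side steps, 5 end in _s_at and 3 in _x_at, and none is of the type with probes for a single transcript. None of the listed members was designed from a *G. barbadense* sequence. Levels of different probe sets were not set against each other, because probes differ in how strongly they bind.

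Markers of elongating fiber, namely 2 lipid transfer proteins and 2 alpha-expansins, were all above the floor in both species, with differences from -3.12 to -1.15. The log2 of their summed linear signals, carried mostly by the lipid transfer protein with the highest signal, was 13.65 and 13.72 in *Gb*, against 15.06 and 15.07 in *Gh*. For 3 markers of green tissue, the log2 of the summed linear signals was 7.50 and 8.07 in *Gb*, against 9.79 and 9.44 in *Gh*, and the photosystem I subunit was below the floor in *Gb*. All these markers come from the list of probe sets higher in *Gh*, so their direction was fixed by the choice. By sequencing of separately grown and slightly younger fibers, also at the elongation stage, the study reports expansins and lipid transfer proteins among the genes higher in *Gb*. It also names lipid transfer proteins that were higher in *Gh* by both sequencing and arrays. The part of the markers in the differences of the pathway was not tested. As a sign of RNA quality, the ratio of 5' to 3' signal was taken for 6 control designs of cotton. These were actin, ss1 and ubq11, each in a *G. hirsutum* and a *G. raimondii* design, and their match to *Gb* transcripts was not tested. For 2 of them the 5' signal was below the floor on every array. For all 4 others, which include both designs of actin, both *Gb* values lay under both *Gh* values, with differences from -1.18 to -0.30 (log2). The separation was not uniform. For ubq11 of *G. hirsutum* the nearest arrays were almost equal (-1.80 on *Gb* 2 and -1.79 on *Gh* 29). For ss1 of *G. hirsutum* the *Gh* arrays themselves were apart (-4.62 and -3.62). The part of these ratios in the lower signals of the pathway in *Gb* was not tested either. In RNA from whole fibers, fewer cells with a transcript and less of it per cell cannot be told apart. With 2 arrays per species, an exact permutation test of a single probe set could not go below p = 0.333.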

How the data were processed

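RNA of fibers from *Gb* and *Gh* was hybridized to 4 Affymetrix cotton arrays, 2 per species. The authors normalized the scanner files with gcrma in R (its version is not given in the sources used here), and what they deposited is the log2 signal of each probe set on each array. From 24132 deposited probe sets, 103 controls were left out. The species were compared with limma 3.58.1 (R 4.3.3, default eBayes prior, two-sided), with Benjamini-Hochberg adjustment across 24029 probe sets at a threshold of 0.05. Standard errors are limma's, except for gaps between probe sets, where they come from the 4 arrays directly. Members, lists and markers were chosen with earlier results of these data known. All members and listed pathway probe sets are named from CHI onwards, besides the 3 nearest named profiles of each of 3 profiles. Names came from 1159 rows of the study's list of differential probe sets, all higher in *Gh*, and the other rows of that list were not used. Its columns of signals, fold differences and p-values were not used either. Precision is limited by the number of arrays, and background could be judged only by the log2 signal. The methods call the arrays of a species independent replicates. Simulated data of 24029 probe sets, 200 of them changed, were used to check limma, which found 84% of changes of 4, 64% of changes of 2, 46% of changes of 1 and 12% of changes of 0.5 (log2), besides 3 false calls. Alternatives were other adjustments, priors, filters, scalings and floors, the methods' t-test (with extremes of variance beyond the 0.0001 and 0.9999 quantiles excluded) and leaving out each array. Figures were made in Python 3.11.15 (matplotlib 3.10.9).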

Additional observations from a re-analysis of the deposited data

How the results depend on the processing

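The 5 members that passed the limma threshold kept their direction under all scalings and without each array, which is not read as support. Leaving out an array could not turn it, because both *Gb* arrays lay under both *Gh* arrays for each of them. Scaling to the hybridization controls shifted each member by only -0.28, beside a smallest difference of -1.22. With Bonferroni in place of Benjamini-Hochberg in limma, 33 of the 4880 calls were left, with 1 member (DFR) and 0 of the 8 other later and side steps, of which 6 passed at an unadjusted p under 0.05 and 6 by the methods' t-test with either adjustment. The methods' t-test with Benjamini-Hochberg adjustment gave 7559 calls, and limma after scaling by the hybridization controls gave 7530, with 7 of 7 members against 6 with an intensity trend and 5 in each of the other settings of limma's prior, filter and scaling and in the methods' t-test. Leaving out 1 array gave 2542 to 3947 calls over all probe sets (2798 without *Gb* 1 and 2542 without *Gb* 2), 5 to 6 among the members and 2 to 5 among the other steps. The difference of DFR (GraAffx.32888.2.S1_s_at) was -7.46 with array medians subtracted, -7.60 after cyclic loess and -7.82 with scaling to the hybridization controls. That of ANR (GraAffx.21935.1.S1_s_at) was -1.14, -1.29 and -1.50 in the same order, and with scaling to the hybridization controls those of F3H (Gra.2794.2.S1_s_at) and ANS were -2.23 and -2.31. The lower bound for DFR was 181-fold with a floor of log2 3 and 45.3-fold with a floor of log2 5. The cause of these changes was not tested beyond what each setting does by its construction. Without each array, differences ran from -2.14 to -1.75 for F3H, from -7.57 to -7.51 for DFR, from -2.73 to -2.17 for LAR, from -2.14 to -1.93 for ANS and from -1.23 to -1.21 for ANR. For the probe sets below the floor they ran from -0.59 to 0.05 (Gra.2794.1.A1_s_at) and from -1.58 to -0.76 (GraAffx.32888.1.A1_at). The count of 8 of 10 probe sets higher on *Gb* 1 was the same with array medians subtracted and after cyclic loess. No paired analysis was possible because the species share no replicate numbers.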

Other observations

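Among the earlier steps, 4 of the 13 probe sets at or above the floor on both *Gb* arrays were higher on *Gb* 1 than on *Gb* 2 by at least 0.5 on the log2 scale, against 2.34% of all probe sets. All 4 were C4H, the second enzyme of the general phenylpropanoid route. Their gaps were 0.73 (Gra.2967.2.S1_s_at), 0.62 (GarAffx.24670.1.S1_at), 0.59 (Ghi.4426.1.S1_s_at) and 0.52 (GarAffx.24670.1.S1_s_at). The other C4H probe sets, Gra.2891.1.S1_s_at and GarAffx.30221.1.S1_s_at, had gaps of -0.06 and -0.21. These values were described after they were seen. GarAffx.24670.1.S1_at and GarAffx.24670.1.S1_s_at share a cluster number, and C4H probe sets with shared probes are not independent of each other.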
